A study of Mus musculus with 3 samples.

Results

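The genes described here are those that write, remove and read acetyl groups on histones in the mouse genome, together with the related N-terminal acetyltransferase genes that share their nomenclature. They were chosen by a rule on gene symbols, with earlier results of these data known. The rule took probe sets that name a single gene, by the symbol on the array's annotation. This symbol had to begin with Kat, Myst, Hdac, Sirt, Brd, Ing, Epc or Naa and a digit, or with Brpf, Morf4l or Cdyl. Brdt, Ep300 and Hat1 were taken by their whole symbol. The rule found 62 probe sets for 59 genes, of 21789 single-gene probe sets for 19938 genes in all. No symbol beginning with Myst was found, because the annotation lists those genes under Kat names. Naa10 and Naa11 were not analysed here. The symbol family is wider than the function, since several members act mainly on other proteins, as is said where they are described.

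RNA was measured on 3 Affymetrix GeneChip Mouse Gene 1.0 ST arrays, a single-colour array with probes along the exons of each gene. All 3 samples were labelled spermatids, taken from the testes of wild-type BALB/c males aged 30 days, and 200 ng of total RNA was labelled for each. The labels describe cutting, homogenising and straining the tubules and name no step that enriches a cell type, and they do not say whether the replicates came from separate animals. There was 1 group and no other condition. Each p-value below sets a gene's height over a background level against the spread between these samples' deposited values. This spread may be technical, and many deposited values were equal between arrays.

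Histone acetylation neutralises lysine charges on histone tails, loosens nucleosomes and marks active genes. Acetyltransferases add the group, bromodomain proteins bind it, and the zinc-dependent deacetylases and sirtuins take it off. In spermatids the process has a second use: histone H4 becomes strongly acetylated across the genome as the nucleus elongates, just before histones give way to transition proteins and protamines. Brdt, the testis member of the BET family of double bromodomain proteins, binds this acetylated H4 and is needed for that exchange in mice, and the NuA4 complex with its catalytic subunit Kat5 and its scaffold Epc1 is also known to act there.

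Levels are RMA values on the log2 scale, errors are SDs over the 3 arrays, and an SD of 0 means that all arrays carried exactly the same deposited value, not that there was no error. A level depends on how well a gene's probes bind, so where the highest or lowest genes of a list are named, their order describes the arrays' values and is no comparison of the genes. A gene was called above background when its mean exceeded 7.98 in a one-sided limma test, at an adjusted p below 0.05 (Benjamini-Hochberg). That level is the 95th percentile over 211 genes not expected in testis, the vomeronasal receptor and hair keratin associated protein genes, whose median was 4.77. A gene not called is therefore not shown to be silent.

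The labelled cell type was checked against short marker lists. All 10 spermatid markers were above background, with a mean level of 12.32 and Prm2 highest at 13.22, and so were all 10 spermatocyte markers, with a mean of 10.66. Of the markers of other testis cells, 7 of 8 measured Leydig cell genes and 7 of 9 Sertoli cell genes were above background. So were 6 of 10 peritubular, stromal and endothelial genes, beside 36.6% of all named genes. The counts of 3 of 10 spermatogonial genes and 3 of 8 blood and immune genes were near that share and do not show those cells. Markers of several cell types were thus above background, and the part of each cell type in the levels below was not tested. In such bulk RNA, fewer cells of a type and less RNA per cell cannot be told apart.

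Of the 59 members 45 were above background and 14 were not, beside 36.6% of all 19938 named genes. The median level over members was 9.21, against 7.45 for all named genes, a difference of 1.77, and 35 members lay above 8.84, the upper quartile of all named genes. The members' levels ran from 6.23 for Sirt6 to 11.47 for Hdac1. The share above background varied by role. It ran from all 13 genes grouped as subunits of acetylation complexes to 5 of 11 zinc-dependent deacetylases. The deacetylases' share was nearest to that of all named genes, and the 13 subunit genes include Ing1 and Ing2 of the Sin3 deacetylase complex. The members nearest to the level were Kat6b, 0.01 below it, and Ing4, 0.13 above it. With a stricter level, the 99th percentile of the same genes (9.16), 28 members were above background, beside 19.3% of named genes. With the highest probe set of each gene 46 members were, beside 37.3%, and with probe sets of several genes added 42 of 61 were, beside 31.6%. Without replicate 1, 2 or 3 the members above background numbered 44, 45 and 45, beside 33.4%, 35.6% and 34.1% of named genes, and with robust variances 45, beside 36.4%.

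**Figure D1:**
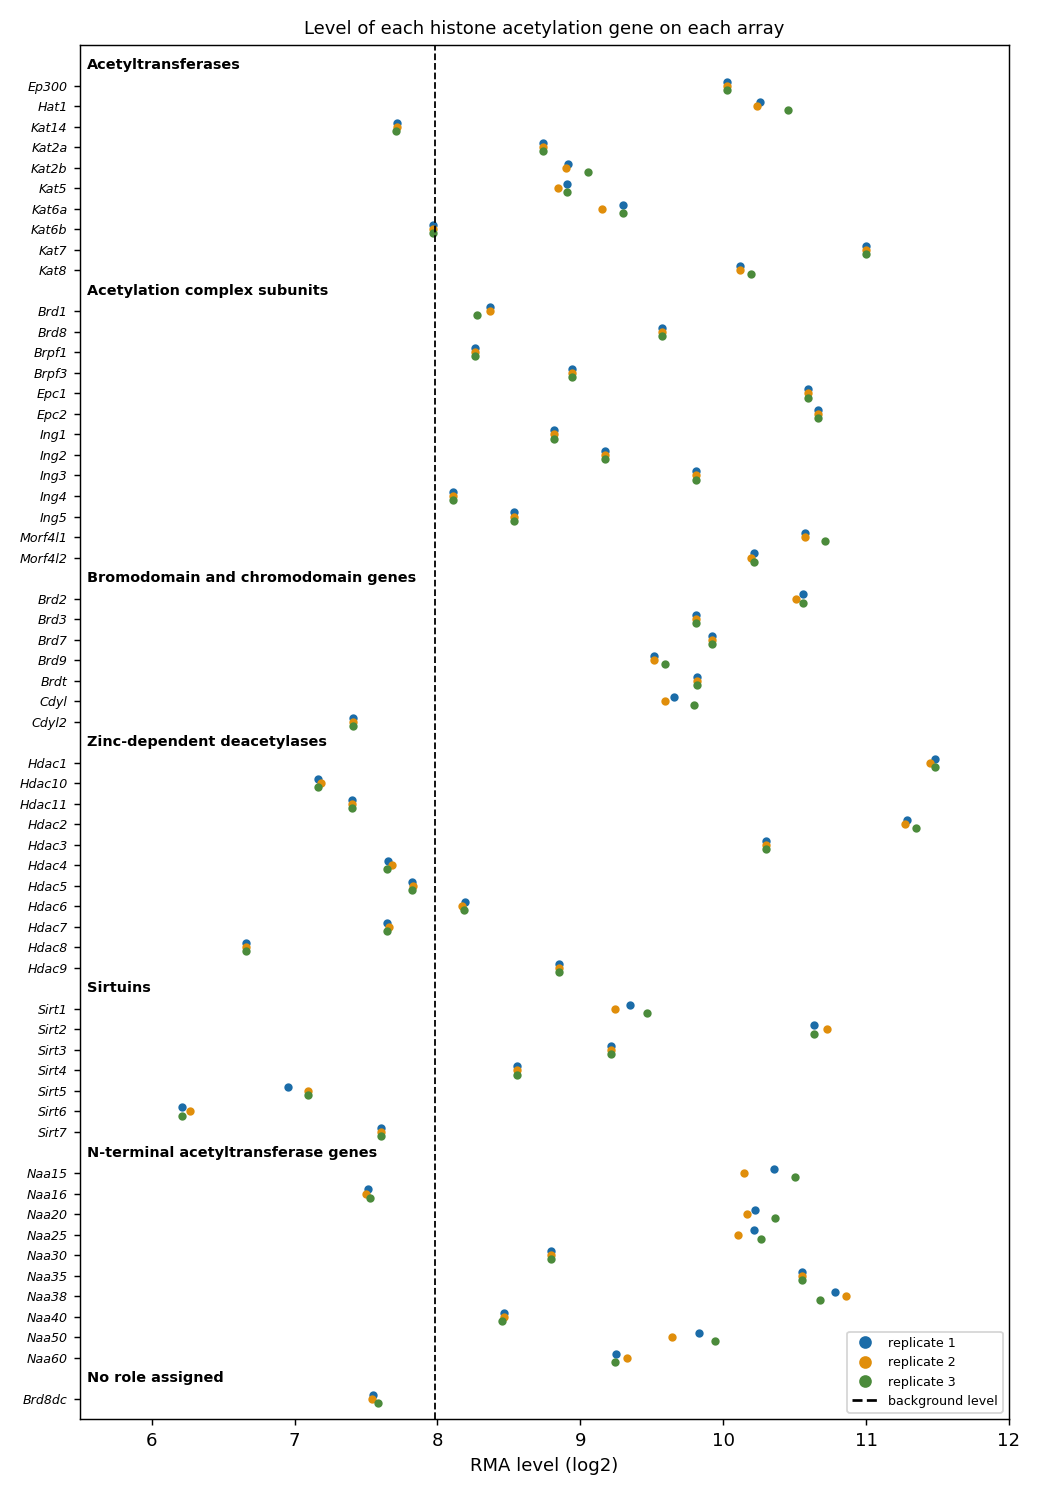
RMA level (log2, x axis) of each of the 59 members on replicates 1, 2 and 3, grouped by role, with the dashed line at the background level of 7.98. All 13 genes grouped as acetylation complex subunits, which include Ing1 and Ing2 of the Sin3 deacetylase complex, lie right of the line. Left of it lie 6 of 11 zinc-dependent deacetylases and 3 of 7 sirtuins. Of all 19938 named genes 7295 (36.6%) were above background and 12643 were not called.

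Among the readers, Brdt had the deposited level 9.82 on each of the 3 arrays. It was above background, and its tied values leave its error unmeasured. Its promoter window is shown because Brdt is known as a testis-restricted gene. The other windows come from Hat1, Ing3 and Hdac2, a writer, a complex subunit and an eraser above background, and from Hdac8, an eraser that was not called. Each run below is the 200 bases before the annotated start, 5′ to 3′ on the gene's strand, from RefSeq on build GRCm38.p6. Capitals mark matches on either strand to the letters TGACGTCA (the cyclic AMP response element, CRE), CACGTG (the E-box), CCAAT (the CCAAT box), GGGCGG (the GC box) or TATAAA (the TATA box).
Brdt (chr5:107330994-107331193, plus strand): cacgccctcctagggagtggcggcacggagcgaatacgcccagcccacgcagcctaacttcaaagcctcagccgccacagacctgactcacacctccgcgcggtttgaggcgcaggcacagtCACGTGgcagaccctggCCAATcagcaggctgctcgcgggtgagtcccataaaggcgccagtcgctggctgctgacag
Hat1 (chr2:71389060-71389259, plus strand): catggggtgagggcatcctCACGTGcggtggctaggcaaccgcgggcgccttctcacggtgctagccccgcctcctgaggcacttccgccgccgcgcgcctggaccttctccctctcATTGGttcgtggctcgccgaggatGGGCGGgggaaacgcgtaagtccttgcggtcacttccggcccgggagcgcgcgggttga
Ing3 (chr6:21949371-21949570, plus strand): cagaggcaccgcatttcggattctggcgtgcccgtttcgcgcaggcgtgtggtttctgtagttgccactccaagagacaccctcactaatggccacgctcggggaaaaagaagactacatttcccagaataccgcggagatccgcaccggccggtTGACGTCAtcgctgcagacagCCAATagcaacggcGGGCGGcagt
Hdac2 (chr10:36974344-36974543, plus strand): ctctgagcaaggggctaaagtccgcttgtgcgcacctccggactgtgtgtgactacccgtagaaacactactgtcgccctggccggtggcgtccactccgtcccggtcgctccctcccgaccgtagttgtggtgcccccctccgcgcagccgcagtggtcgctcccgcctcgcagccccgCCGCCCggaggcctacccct
Hdac8 (chrX:102505159-102505358, minus strand): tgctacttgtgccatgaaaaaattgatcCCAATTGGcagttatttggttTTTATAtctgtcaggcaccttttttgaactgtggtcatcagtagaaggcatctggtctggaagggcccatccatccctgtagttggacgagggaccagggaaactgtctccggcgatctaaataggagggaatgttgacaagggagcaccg

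In these windows the Brdt promoter held an E-box 78 bases and a CCAAT box 61 bases before the start. The Ing3 promoter held a full CRE 45 bases before it, a CCAAT box and a GC box. In the Hdac8 window 2 matches to CCAAT on opposite strands overlap, at 172 and 169 bases before the start. A match is a run of letters and does not show that a factor binds there.

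A promoter window was matched for 49 of the 59 members. Over the 250 bases before the start, these windows held a median of 21 CpG dinucleotides and 64.0% G and C, against 11 CpG and 56.4% for 15614 named genes and 16 CpG and 59.6% for the 5988 named genes above background. The 38 members above background had a median of 21 CpG and the 11 that were not called a median of 17, so both kinds lay above the median of 11 over named genes. A GC box was found in 35 of 49 member windows (71.4%), against 46.0% of named genes and 56.8% of named genes above background. A CCAAT box was found in 38.8%, close to the 35.5% of named genes and 36.9% of those above background, and a TATA box in 4.08%, namely in Hdac8 and Hdac9, against 11.2% of named genes and 6.61% of those above background. The full CRE was found in 2 members (4.08%), Ing3 and Ing4, and in 2.12% of named genes and 3.14% of those above background. An E-box was found in Brdt, Hat1, Kat5 and Sirt1, 8.16% of members, and in 7.03% of named genes and 8.80% of those above background.

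Of the 7 bromodomain and chromodomain genes 6 were above background, 85.7% beside 36.6% of named genes. Brd2, a BET protein that binds acetylated H4 in many tissues, had 10.56, 10.51 and 10.56 on replicates 1, 2 and 3 (adjusted p = 2.43e-05, limma). Brd3, another BET member, stood at 9.81 with tied values. The 3 measured BET genes, Brdt, Brd2 and Brd3, were thus above background together, each on every array. Brd7, a subunit of the PBAF chromatin remodelling complex, stood at 9.92 with tied values, and Brd9, of the non-canonical BAF complex, at 9.54 ± 0.05 (SD, n = 3). Cdyl, a chromodomain protein that binds methylated histone H3 and lowers histone crotonylation in mouse germ cells, had 9.66, 9.59 and 9.79 (adjusted p = 0.00085, limma). Its paralog Cdyl2 had 7.41 on each array and was not called. Neither Cdyl gene encodes a bromodomain, and they fall among the readers by their symbol.

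Of the 10 acetyltransferase genes 8 were above background, 80.0% beside 36.6% of named genes. Ep300, a broad-range transcriptional coactivator, stood at 10.02 with tied values, and its relative Crebbp, which the symbol rule does not take in, was at 10.02 ± 0.05 (SD, n = 3; adjusted p = 0.00016, limma). Hat1, which acetylates new H4 before it is placed on DNA, had 10.26, 10.23 and 10.45, with replicate 3 apart from the others (adjusted p = 0.000618, limma). Each of these 3 genes was above background on every array.

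The MYST family acts mainly on H4 and H3. Kat7, the catalytic subunit of the HBO1 complex, had 10.998 on all arrays. Kat8, the H4 acetyltransferase of the MSL and NSL complexes, had 10.12, 10.12 and 10.19 (adjusted p = 9.02e-05, limma). Kat5, the catalytic subunit of NuA4, had 8.91, 8.85 and 8.91 (adjusted p = 0.000382, limma). Kat6a, of the MOZ complex, had 9.30, 9.15 and 9.30 (adjusted p = 0.00099, limma). Its paralog Kat6b stood at 7.97 on every array, so near to the level that the call is decided by where the level is set: without replicate 2 the level was 7.94 and Kat6b lay above it.

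The GNAT enzymes of the SAGA and ATAC coactivators were also measured. Kat2a stood at 8.74 with tied values, and Kat2b had 8.91, 8.90 and 9.05 (adjusted p = 0.00182, limma). Both were above background at 7.98 and below the stricter level of 9.16, as was Kat5. Kat14, a subunit of ATAC with an acetyltransferase domain, had 7.72, 7.72 and 7.71 and was not called.

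All 13 genes grouped as subunits of acetylation complexes were above background, beside 36.6% of named genes, and 10 of them had tied values. The group includes Ing1 and Ing2, which belong to a deacetylase complex. Epc1 stood at 10.60 and Epc2 at 10.67 on each array. Both are scaffolds that hold the catalytic part of NuA4 together. Ing3, the NuA4 subunit that reads methylated H3, stood at 9.81, and Brd8, its bromodomain subunit, at 9.57. Morf4l1, a chromodomain protein shared by NuA4 and the Sin3 deacetylase complex, had 10.57, 10.57 and 10.71, and its X-linked paralog Morf4l2 had 10.22, 10.19 and 10.22 (adjusted p = 0.000208 and 7.65e-06, limma). The NuA4 members of the list (Kat5, Epc1, Epc2, Ing3, Brd8, Morf4l1 and Morf4l2) were therefore all above background.

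The remaining subunits had levels from 8.11 to 9.17. Brpf1 stood at 8.26 and Brpf3 at 8.94 with tied values, and Brd1 had 8.37, 8.37 and 8.28 (adjusted p = 0.00586, limma). These 3 are scaffolds of the MOZ and HBO1 complexes. Brd1 was the one member of its role that did not pass with an array left out, at adjusted p = 0.0699 without replicate 1 and 0.0896 without replicate 2 (limma). Ing4 and Ing5, subunits of HBO1, stood at 8.11 and 8.54. Ing1 and Ing2 belong to the Sin3 deacetylase complex, not to an acetyltransferase, and stood at 8.82 and 9.17, all with tied values. Ing2 is needed for male fertility in mice.

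Of the 11 zinc-dependent deacetylases 5 were above background, 45.5% beside 36.6% of named genes. They include all 3 measured class I genes on autosomes. Hdac1 had 11.48, 11.45 and 11.48 (adjusted p = 5.42e-06, limma). Hdac2, its close paralog in the Sin3, NuRD and CoREST complexes, had 11.29, 11.27 and 11.35 (adjusted p = 3.61e-05, limma). Hdac3, the enzyme of the NCoR complex, stood at 10.30 with tied values. The X-linked class I gene Hdac8, whose product acts on cohesin, stood at 6.66 on every array, below the level.

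Of the 7 class II and IV genes 5 were not called, a share near that of all named genes, of which 12643 of 19938 were not called. Hdac4, Hdac5 and Hdac7, class IIa proteins that recruit corepressors and have little activity of their own, were at 7.66 ± 0.02, 7.83 ± 0.0028 and 7.65 ± 0.0047 (SD, n = 3 each). The class IIa gene Hdac9 stood at 8.85 with tied values and was called. Hdac6, an X-linked gene for a cytoplasmic tubulin deacetylase, had 8.19, 8.17 and 8.19, just over the level (adjusted p = 0.000595, limma), while Hdac10, a polyamine deacetylase, was at 7.17 ± 0.01 and was not called. Hdac11, the class IV gene, stood at 7.40 on each array and was not called. Atat1, the enzyme that acetylates tubulin, was outside the symbol rule and stood at 9.21 with tied values, above background. The count for this role depended on the level chosen: when olfactory receptor genes set the level (7.18) 9 of 11 were above background, beside 55.0% of named genes, and at the 99th percentile 3 of 11, beside 19.3%.

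Of the 7 sirtuins, deacylases that consume NAD, 4 were above background, 57.1% beside 36.6% of named genes. Sirt1, a nuclear enzyme needed for normal spermatogenesis in mice, had 9.35, 9.25 and 9.47 (adjusted p = 0.00156, limma), and replicate 3 was the highest and replicate 2 the lowest. Sirt2, a mainly cytoplasmic enzyme, had 10.63, 10.73 and 10.63, with replicate 2 apart from the other two. The mitochondrial genes Sirt3 and Sirt4 stood at 9.21 and 8.56 with tied values, and the third mitochondrial sirtuin gene, Sirt5, was at 7.05 ± 0.08 (SD, n = 3) and not called. Sirt6, a nuclear deacylase of telomeric and other chromatin, had 6.21, 6.26 and 6.21, and Sirt7, a nucleolar enzyme, stood at 7.60. Neither was called.

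The 10 N-terminal acetyltransferase genes encode enzymes and subunits that mostly modify the first residue of new proteins on the ribosome, and 9 of them were above background. Naa15, the ribosome anchor of the NatA complex, had 10.35, 10.15 and 10.50, the widest spread of all members (SD 0.18; adjusted p = 0.00134, limma). Naa16, a paralog that can take the place of Naa15, had 7.51, 7.50 and 7.53 and was not called. Naa50, the catalytic subunit of NatE, had 9.83, 9.64 and 9.94 (adjusted p = 0.0017, limma).

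NatB and NatC were represented in the same way. Naa20 and Naa25, the catalytic and auxiliary subunits of NatB, were at 10.25 ± 0.10 and 10.19 ± 0.08 (SD, n = 3 each). Of NatC, Naa30 and Naa35 stood at 8.79 and 10.55 with tied values and Naa38 was at 10.77 ± 0.09. The measured subunits of NatB and of NatC were thus all above background, beside 36.6% of named genes. Naa40, whose known substrates are the N-termini of histones H4 and H2A, had 8.46, 8.46 and 8.45 (adjusted p = 6.19e-05, limma). Naa60, a Golgi-bound enzyme also described as a histone acetyltransferase, was at 9.27 ± 0.05. Brd8dc, a gene named for its likeness to Brd8 and given no role here, had 7.55, 7.54 and 7.58 and was not called.

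The partners of these enzymes, which carry other names, were taken from 8 lists of complex subunits, other acetyl enzymes and readers, and enzymes of acetyl-CoA supply. Of 120 partner genes 117 were measured and 94 of those were above background (80.3%, beside 36.6% of named genes). Their median level was 9.17, and share and median were close to those of the members. The lists were chosen with earlier results of these data known, so this closeness is no independent check. In the NuA4 list 10 of 11 genes were above background, with Ruvbl2 at 10.39 and Mbtd1 at 10.45 ± 0.02 highest and Mrgbp at 8.53 ± 0.01 and Vps72 at 7.58 lowest, the last not called. Trrap, the large scaffold shared by NuA4 and SAGA, was at 8.74 ± 0.04. In the SAGA and ATAC list 15 of 22 were above background, from Supt20 at 11.85 ± 0.04 and Taf9 at 11.85 ± 0.16 to Yeats2 at 7.51 ± 0.02 and Atxn7l3 at 7.51. In the list of MSL, NSL, MOZ and HBO1 partners 11 of 16 were, with Msl1 at 10.93 and Kansl3 at 10.40 highest and Phf20 at 6.70 ± 0.03 and Jade2 at 6.23 lowest.

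Partners of the deacetylases were mostly above background too, beside 36.6% of named genes. This held for 11 of 13 Sin3 genes, with Sap130 at 10.71 ± 0.09 and Suds3 at 10.50 highest and Brms1 at 7.84 and Sap30l at 6.59 not called. It held for 10 of 12 NuRD genes, with Mbd2 at 11.17 and Chd4 at 10.64 ± 0.0030 highest and Mbd3 at 7.77 and Mta3 at 7.67 ± 0.0080 not called. Chd5, a remodeller of that list needed in mouse spermatids for the exchange of histones, had 9.93, 9.93 and 9.88 (adjusted p = 5.12e-05, limma). Of 9 measured CoREST and NCoR genes 7 were called, with the demethylase gene Kdm1a at 10.72 and Rcor3 at 10.39 highest and Hmg20b at 7.31 ± 0.08 and Rcor2 at 6.97 not called. The measured class I deacetylases of these complexes and most of their partners were thus above background alike.

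Other acetyl enzymes and bromodomain or YEATS genes outside the symbol rule were above background in 26 of 27 cases, beside 36.6% of named genes. Smarca2, a bromodomain ATPase of the BAF complex, was at 11.91 ± 0.08 and Baz2a at 10.68. Elp3 at 8.33 and Mllt1, a YEATS reader at 7.35, were lowest, and Mllt1 was not called. In the list of acetyl-CoA supply 8 of 11 genes were above background, with the carnitine acetyltransferase gene Crat at 11.14 and Pdha2 highest and Pdha1 and Acss3 at 7.53 lowest. Pdha2, the autosomal testis copy of a pyruvate dehydrogenase subunit, had 10.77, 10.77 and 10.80, and its X-linked progenitor Pdha1 stood at 7.54 and was not called. Msl3l2, an autosomal relative of the X-linked Msl3, stood at 8.75 and was called, while Msl3 was at 7.71 ± 0.07 and was not. Both pairs were chosen after their values were seen. The other X-linked partner genes were mostly called: Rbbp7 (10.27), Jade3 (9.82), Tbl1x (9.20), Ogt (9.18) and Taf1 (9.13) were, and Hcfc1 (8.18) was not. Of the 3 X-linked members Hdac6 and Morf4l2 were called and Hdac8 was not, beside 204 of 739 X-linked genes (27.6%).

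**Figure D2:**
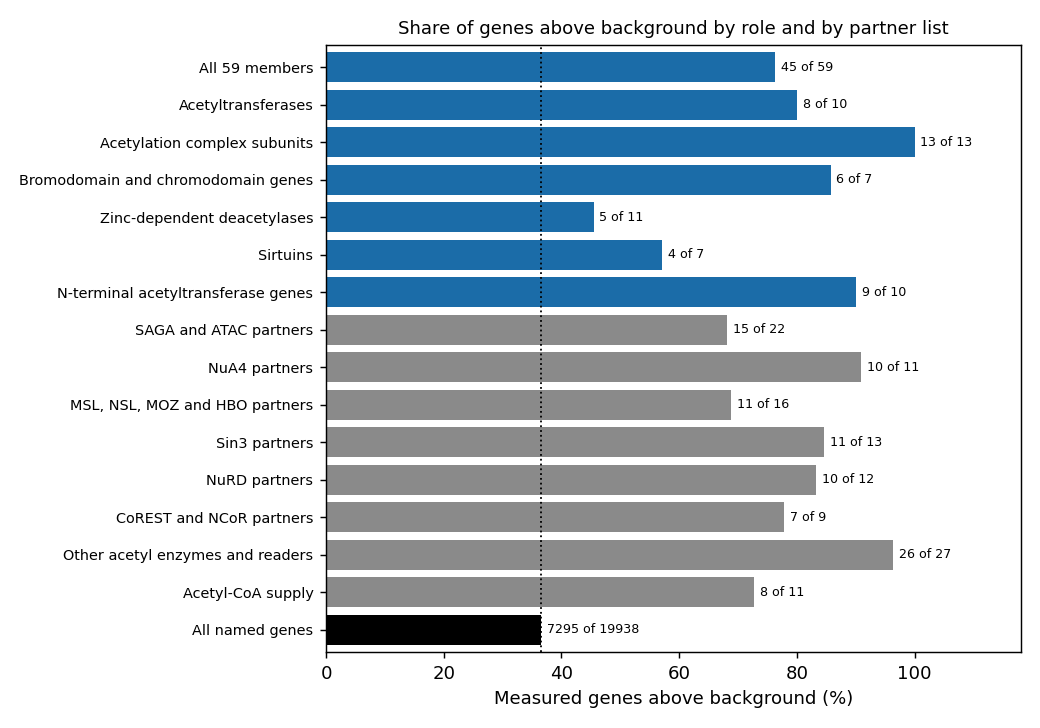
Share of measured genes above background (x axis, percent) for the 59 members, their 6 roles (blue), 8 lists of partner genes (grey) and all 19938 named genes (black, dotted line at 36.6%), with counts beside the bars. Each bar for a role or a list ends right of the dotted line, and that of the zinc-dependent deacetylases, 5 of 11, ends nearest to it.

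Many deposited values coincided between arrays. Exactly equal levels on all 3 arrays were found for 27 of 59 members (45.8%), against 46.0% of all named genes. Tied members made up 22 of the 45 above background (48.9%), against 39.0% of the 7295 named genes above background. For a tied gene the test asks little more than whether its level lies above the background level. Of the 32 members not tied on all 3 arrays, 16 had 3 distinct values. The others had exactly equal values on 2 arrays, so their SDs and p-values rest on how far 1 array lay from that value. The median SD of a member was 0.0073, against 0.0075 for all named genes, and 5 members (8.47%) had an SD over 0.1, against 13.7% of named genes. These were Naa15, Naa50, Hat1, Sirt1 and Cdyl. No member differed by more than 0.5 between any pair of arrays, and the largest difference was 0.35.

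Of the 32 members whose values were not all tied, 20 were higher on replicate 3 than on replicate 2 and 11 were lower. Over all named genes 4850 were higher and 5491 lower. Above background, 18 members were higher and 5 lower, beside 3532 and 824 named genes. Of 16 members with 3 distinct values, 12 were lowest on replicate 2 and highest on replicate 3, among them each of the 5 genes just named, and 3 had the opposite order, among them Naa38 with 10.78, 10.86 and 10.68. The same order held for 83.4% of the 2208 named genes above background with 3 distinct values, against 52.0% of all 4320 such named genes. Among members above background it held for 10 of 13 (76.9%), so the order was not particular to the members. The means of 6 of 7 marker lists were higher on replicate 3 than on replicate 2. All 10 spermatid markers were higher on replicate 3 than on replicate 2, by 0.06 on average over the list, and 7 of 10 spermatocyte markers were, by 0.12. So were 4 of 8 Leydig markers (0.06), 4 of 10 peritubular, stromal and endothelial markers (0.07), 3 of 9 Sertoli markers (0.02) and 3 of 8 blood and immune markers (0.03), and 1 of 10 spermatogonial markers (-0.01). The part of these lists in the members' spread was not tested.

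**Figure D3:**
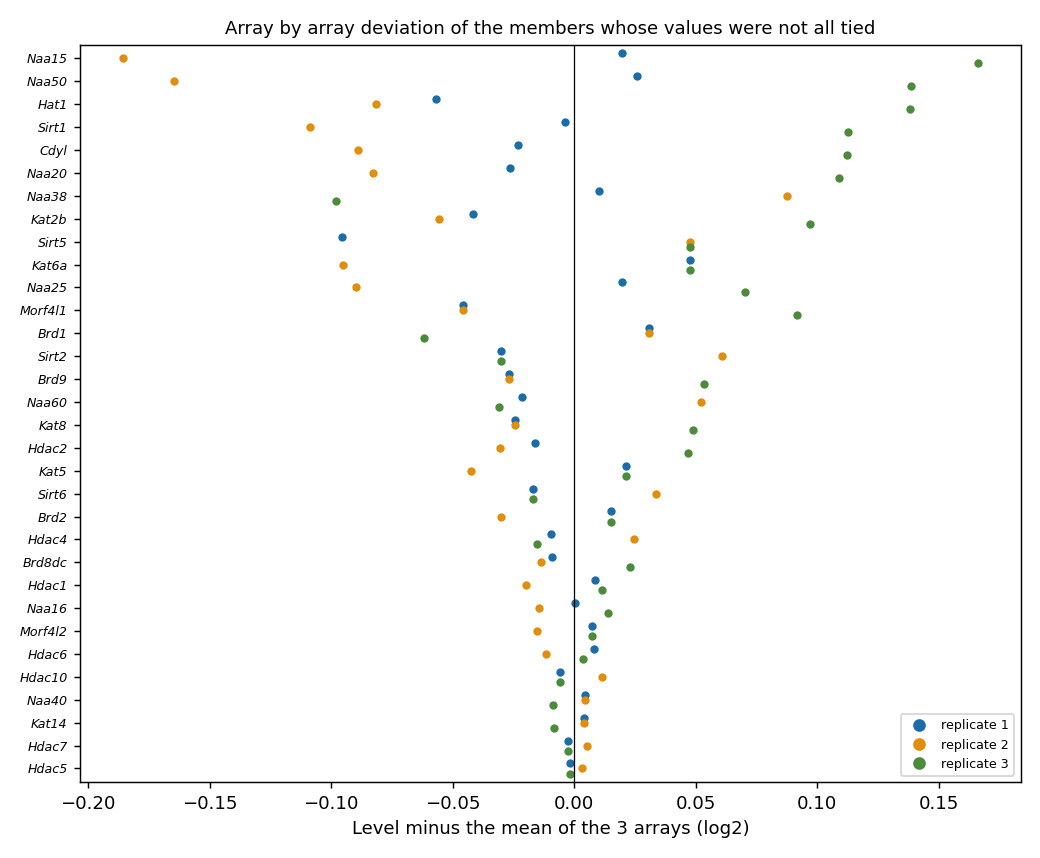
Level minus the mean of the 3 arrays (log2, x axis) for the 32 members whose values were not all tied, in order of SD from the top, with 1 point per replicate. For Naa15, Naa50, Hat1, Sirt1 and Cdyl replicate 2 lies leftmost and replicate 3 rightmost, and every deviation is smaller than 0.2.

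Where a gene had several probe sets, they did not always agree. The probe sets of Hdac1 gave 11.64 ± 0.0011 and 11.30 ± 0.03 (SD, n = 3 each), both above background. The probe sets of Naa20 gave 10.32 ± 0.09 and 10.19 ± 0.11, also both above. The probe sets of Hdac4 fell on either side of the level, at 8.17 ± 0.0065 and 7.15 ± 0.04, and Hdac4 was called with the higher one alone. Its call therefore rests on how probe sets were summarised.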

How the data were processed

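The deposited table holds log2 probe set levels, which the authors made by Robust Multichip Average (RMA) in Affymetrix Power Tools on an mm9 annotation, per the series' design text. The software version and scan batches are not given in the sources used here. All 3 columns were used. They were not centred, and their medians were 7.17, 7.20 and 7.17. Depth has no meaning for an array, and the number of arrays limits the precision.

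Genes were named through the platform annotation (21789 probe sets with 1 gene, 1621 with several, 12146 unnamed here), and symbols and chromosomes were updated by Entrez identifier to GRCm38.p6 (21698 of 21789 matched). Single-gene probe sets were combined by their median into 19938 genes. Each gene's mean was tested, one-sided, against the background level with limma 3.58.1 in R 4.3.3 (intercept only, empirical Bayes), and p-values were adjusted by Benjamini-Hochberg over all 19938 genes, at 0.05. The prior had 0.267 degrees of freedom. The test was first tried on simulated data.

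The members and lists were chosen with earlier results of these data known. Every member may be named. Values on all 3 arrays are given for members with a known part in histone acetylation or the testis and for the 5 members with the largest SD, and for partner lists the 2 highest and 2 lowest genes and a few preset ones are named. Gene pairs set side by side were chosen after their values were seen. Promoter windows came from RefSeq (GRCm38.p6), first listed window per gene. Alternatives were other background levels, call rules, variance models, probe set summaries, updated symbols and leaving out each array.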

Additional observations from a re-analysis of the deposited data

Results flagged for a closer look

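Probe sets that name a member together with another gene were left out of the levels above, and 4 of them lay above the background level of 7.98 on every array. Of these, 3 name Morf4l1 and its pseudogene Morf4l1-ps1 and had mean levels of 12.21, 12.69 and 12.59, against 10.62 for the probe set that names Morf4l1 alone. The level of Morf4l1 is therefore uncertain, although each of these probe sets lay above background. Another probe set names Naa80, which acetylates actin, and Hyal1 and had a mean level of 8.72, and a further one with the same 2 names stood at 6.15. With 3 arrays, no array was tested as an outlier.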

How the results depend on the processing

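No paired analysis was possible because there is 1 group. The calls of all 59 members were the same when all 3 arrays had to lie above the level, with a mean-variance trend and with robust variances, and updated symbols gave the same 59 genes. The background level mattered most. At the 99th percentile level of 9.16, 28 of 59 members were above background, beside 19.3% of named genes. By role, 4 of 10 acetyltransferases, 7 of 13 complex subunits, 3 of 11 zinc-dependent deacetylases and 2 of 7 sirtuins were. So were 6 of 7 bromodomain and chromodomain genes and 6 of 10 N-terminal acetyltransferase genes. Of the partners, 9 of 22 SAGA and ATAC, 7 of 11 NuA4 and 5 of 16 MSL, NSL, MOZ and HBO1 genes were. The counts were 7 of 13 for Sin3, 6 of 12 for NuRD and 3 of 9 for CoREST and NCoR. They were 13 of 27 for other enzymes and readers and 6 of 11 for acetyl-CoA supply. Members then below the level were Ing4 (8.11), Hdac6 (8.19), Brpf1 (8.26), Brd1 (8.34), Naa40 (8.46), Ing5 (8.54), Sirt4 (8.56), Kat2a (8.74), Naa30 (8.79), Ing1 (8.82), Hdac9 (8.85), Kat5 (8.89), Brpf3 (8.94) and Kat2b (8.95), and Kat6a, Naa60 and Sirt1 lay above it but were no longer called (adjusted p = 0.429, 0.0959 and 0.180, limma). With the olfactory receptor level of 7.18 and the vomeronasal receptor level of 6.92, 55 and 56 of 59 members were above background, beside 55.0% and 62.0% of named genes. Of 11 zinc-dependent deacetylases 9 and 10 were, and of 7 sirtuins 5 at either level. All 10 acetyltransferases, 13 complex subunits, 7 bromodomain and chromodomain genes and 10 N-terminal acetyltransferase genes were above background at both levels. Above both levels were Hdac11 (7.40), Cdyl2 (7.41), Naa16 (7.51), Brd8dc (7.56), Sirt7 (7.60), Hdac7 (7.65), Hdac4 (7.66), Kat14 (7.72), Hdac5 (7.83) and Kat6b (7.97), and above the lower one also Hdac10 (7.17) and Sirt5 (7.05), the last not called (adjusted p = 0.0678, limma). With probe sets of several genes added, which moved the level to 8.33, Ing4 (8.11), Hdac6 (8.19) and Brpf1 (8.26) lay below it, and Brd1 (8.34) was no longer called. With the highest probe set per gene, Hdac4 (8.17) lay above it. Without 1 array, 44 to 45 members were called, and Kat6b (7.97) lay above the level of 7.94 without replicate 2. The members' median excess over all named genes ranged from 1.74 to 1.78 over its alternatives.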
